A study of Mus musculus with 28 samples.

Results

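Macrophages grown from mouse bone marrow were primed with interleukin-4 (IL-4) or with interferon-γ (IFN-γ), and the RNA of cells that received either cytokine, without bacterial lipopolysaccharide (LPS), was compared. The comparison rests on the 4 arrays titled as macrophages treated with IL4 (experiments A, B, C and G) and the 3 titled as treated with IFNgamma (experiments E, F and G), which are 7 of the 28 arrays of the series. Marrow of several C57BL6/J mice, named in the labels as 2 males and 1 female of 8 to 12 weeks, was pooled and grown in human CSF1 (200 ng/ml), a growth factor that all groups carried. From day 7 the cells received either cytokine for 18 h, IL-4 at 10 ng/ml and IFN-γ at 100 U/ml. Untreated cells (7 arrays) are shown beside the primed cells as the level in CSF1 alone, and IL-4 plus LPS (4 arrays) and IFN-γ plus LPS (3 arrays), with LPS at 10 ng/ml for the last 4 h, are used in 1 closing comparison. Macrophage transcripts were present, with 13 of 13 macrophage marker genes well above background on each of the 7 arrays. Many markers of other cell types were above background too, and are described near the end of these results.

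IL-4 is a cytokine of type 2 immunity. It binds a receptor of the chains IL-4Rα and γc, or IL-4Rα and IL-13Rα1, and acts through the transcription factor STAT6, and macrophages exposed to it are called alternatively activated. IFN-γ is made by T cells and natural killer cells, acts through the JAK1 and JAK2 kinases, and gives the classically activated state known for antimicrobial killing and antigen presentation.

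Levels are log2 intensities relative to the 75th percentile of the array. A difference is the mean level with IL-4 minus that with IFN-γ, given ± the standard error of the limma model, so that a negative difference is higher with IFN-γ. A gene was called at an adjusted p under 0.05. Levels are given in the order of experiments A, B, C and G for IL-4 and E, F and G for IFN-γ, and a level says nothing about another gene's level. For a gene that was not well above background on any array of one treatment, only a bound is given ("at least N-fold"). It sets the mean of the other treatment against a floor. On each array the floor was the lowest signal of any probe that counted as above background, or the gene's own reading where that was higher. Signals not above background can lie over that lowest signal, so the bounds are approximate.

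Of 22393 genes tested, 6260 (28%) were called, 3334 (14.9%) higher with IL-4 and 2926 (13.1%) higher with IFN-γ. At least 2-fold apart were 10.5% on the IL-4 side and 8.96% on the IFN-γ side, and at least 4-fold apart were 814 genes (3.64%) on the IL-4 side and 820 (3.66%) on the IFN-γ side. The median difference over all genes was 0.30 and became -0.06 when arrays were scaled on their median, under which 27.6% of called genes were higher with IL-4 in place of 53.3%. It was also -0.02 with the slide or the scan day as a block, although no slide held both treatments, and 0.73 with normexp background correction. Small differences toward IL-4 are therefore read against that 0.30, and list counts that scaling moved by over 1.5 times are named beside the list. Counts of list and marker members called are read against the shares of all genes, 14.9% toward IL-4 and 13.1% toward IFN-γ. The IL-4 arrays A, B and C and the IFN-γ arrays E and F were scanned on other days, and only experiment G holds both treatments on 1 scan day. Within experiment G, 97.8% of the genes called toward IL-4 and 99.1% of those called toward IFN-γ had the same direction. The arrays of experiment G also entered the test, which favours such agreement, and the share over all genes was not computed. Without the IFN-γ array E, 2201 genes were called toward IL-4 and 2309 toward IFN-γ. In bulk RNA, fewer cells of a kind and less RNA per cell cannot be told apart. Arrays correlated across genes at 0.972 to 0.985 within IL-4, 0.974 to 0.991 within IFN-γ and 0.929 to 0.960 between them.

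Retnla, Mgl2 and Arg1 were among the 20 genes furthest to the IL-4 side. Retnla, which encodes a small secreted protein of the resistin family, read 7.65, 7.64, 8.10 and 7.52 with IL-4 and -8.89, -9.09 and -8.25 with IFN-γ. Its IFN-γ arrays, like the untreated arrays, were not above background, and it was at least 24313-fold higher with IL-4 (adjusted p = 1.64e-16). Mgl2, a lectin for galactose-type sugars, read 4.90, 5.34, 5.72 and 5.75 with IL-4 against -4.44, -3.86 and -5.09 with IFN-γ. Untreated arrays lay between the treatments at -1.83 to -0.74 (median -1.29). The arginase gene Arg1 read 3.33, 4.58, 3.87 and 5.45 with IL-4 and -5.24, -4.84 and -3.85 with IFN-γ, and the untreated arrays ran from -7.44 to -4.61 (median -6.58). Of the secreted ribonucleases of the eosinophil-associated family, Rnase2a read 4.93, 5.11, 6.13 and 4.50 with IL-4 and -1.97, -4.05 and -4.43 with IFN-γ (8.65 ± 0.60, adjusted p = 3.37e-11). Its near-identical relatives Ear1, Ear3 and Ear10 were also among the 20 furthest genes, but probes of this family may read one another's transcripts.

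Cdh1, another of these 20 genes, encodes E-cadherin, a cell adhesion protein. It read 0.51, 0.16, -0.12 and 0.98 with IL-4 while no IFN-γ array was above background (at least 150-fold higher). The fibronectin gene Fn1 was at least 149-fold higher with IL-4, and the retinol carrier gene Rbp4 at least 62.1-fold. Cd163, the receptor that clears haemoglobin bound to haptoglobin, read -1.34, -0.72, -0.78 and -0.93 with IL-4 and -3.45 to -1.78 (median -2.85) in untreated cells. It was above background on none of the 3 IFN-γ arrays (at least 59.7-fold higher with IL-4). Hebp2, a heme-binding protein gene, read 2.16, 2.69, 3.41 and 2.57 with IL-4 and -5.20, -5.32 and -4.43 with IFN-γ (7.69 ± 0.36, adjusted p = 3.67e-14). The homeobox gene Msx3 (7.79 ± 0.85) was above background on 1 of 3 IFN-γ arrays. The sodium channel genes Scn1a and Scn3a, whose probes may not tell these relatives apart, were at least 37.4-fold and at least 40.5-fold higher with IL-4.

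Cxcl11, Ubd and Ptgs2 were among the 20 genes furthest to the IFN-γ side. Cxcl11, a ligand of the T cell receptor CXCR3, read -7.49, -7.53, -7.42 and -8.15 with IL-4 and 5.65, 5.06 and 4.41 with IFN-γ. No IL-4 array was above background, the untreated arrays read -4.10 to -3.11 (median -3.48), and the gene was at least 1771-fold higher with IFN-γ (adjusted p = 6.94e-17). Ubd, the ubiquitin-like modifier FAT10, was at least 295-fold higher with IFN-γ. Ptgs2, the inducible cyclooxygenase, read 4.40, 2.51 and 0.65 with IFN-γ and was above background on no IL-4 array (at least 309-fold higher). The 3 IFN-γ arrays spread widely for Ptgs2 but did not overlap the IL-4 arrays. Il12rb1, a chain of the IL-12 receptor, read -1.52, -1.32, -1.51 and -1.67 with IL-4 and 5.39, 5.50 and 5.21 with IFN-γ (-6.87 ± 0.33, adjusted p = 6.01e-14), with untreated arrays at -2.02 to -1.39 (median -1.79). Its arrays lay close together in each group.

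Fpr2, a receptor for formylated peptides, read -5.72, -5.52, -4.76 and -6.01 with IL-4 and 2.70, 1.58 and 1.88 with IFN-γ (-7.56 ± 0.43), and 2 of 4 IL-4 arrays were above background. Cd69, a surface marker of leukocyte activation, differed by -6.97 ± 0.38, and its untreated arrays at -1.09 to -0.41 (median -0.80) lay between the treatments. Ifnb1 encodes interferon β and was at least 63.7-fold higher with IFN-γ, and Klra2, a lectin-like receptor gene of the Ly49 family, at least 97.4-fold. The protease inhibitor gene Serpina3f (-7.08 ± 0.46) has near-identical relatives and its value is uncertain, and the channel gene family member Calhm6 differed by -6.94 ± 0.51.

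**Figure D1:**
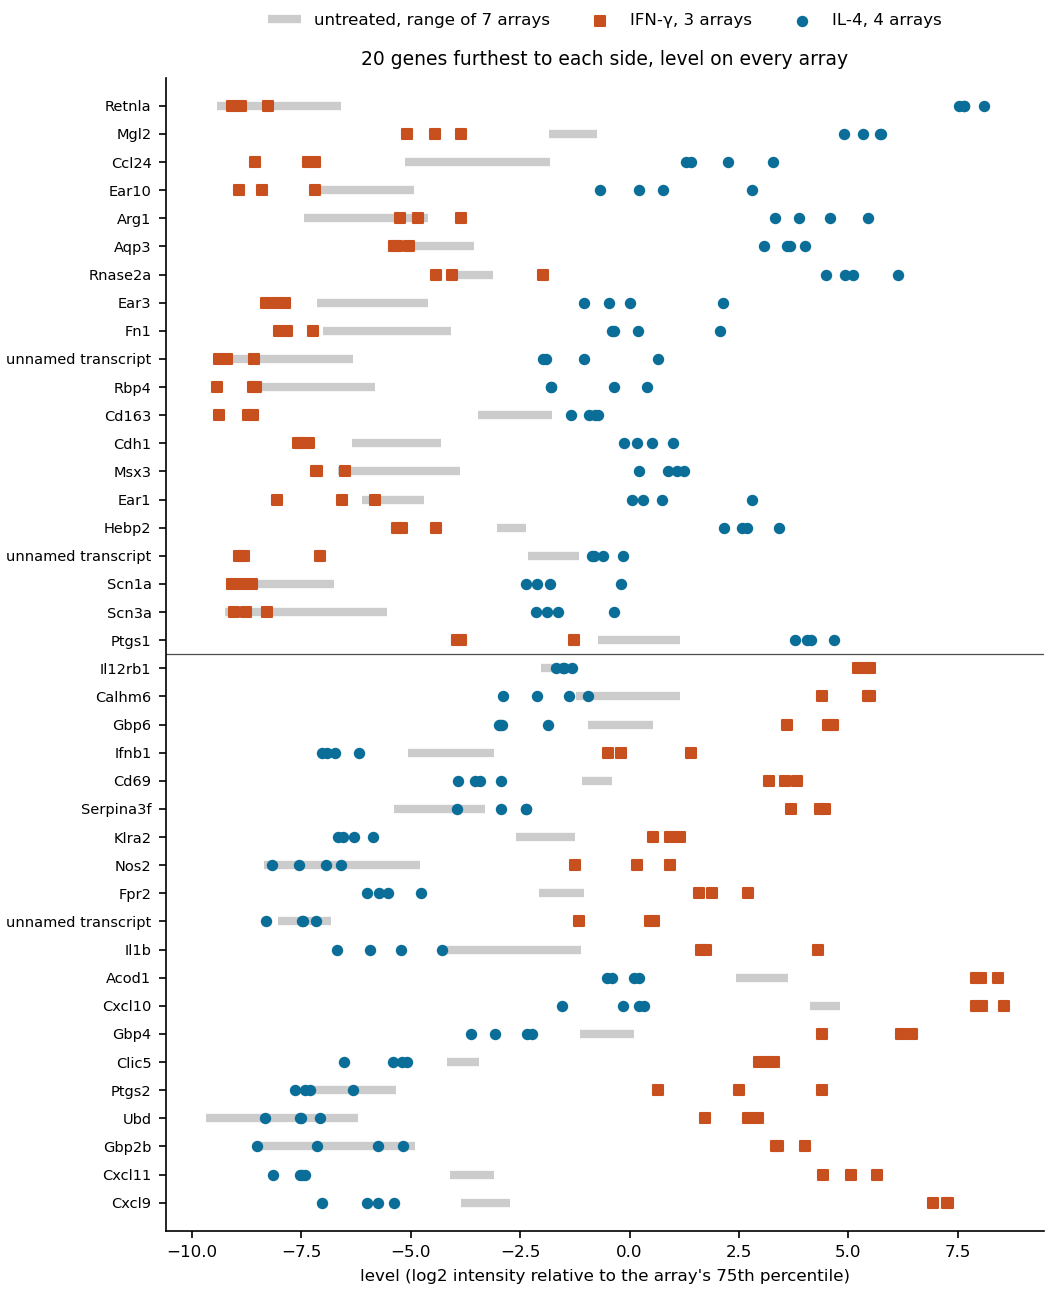
Levels of the 20 genes furthest to the IL-4 side (top) and the 20 furthest to the IFN-γ side (bottom) on each IL-4 array (circles) and IFN-γ array (squares), as log2 intensity relative to the 75th percentile of the array. The grey bar spans the 7 untreated arrays, and for Cd163 it lies between the IFN-γ and the IL-4 arrays, while for Retnla it overlaps the IFN-γ arrays.

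Promoters of genes from both ends are shown because STAT6 and the interferon factors bind short elements whose core letters can be searched. The windows of 300 bases run from 250 before to 50 after the RefSeq start site (GRCm38.p6), 5′ to 3′ on the strand of the gene. Both strands were searched for 3 cores, and matches are in capitals. The core of the interferon-γ-activated sequence (GAS) is TTCNNNGAA, the core that STAT6 prefers has the same ends, TTC and GAA, with 4 bases between them, and the core of the interferon-stimulated response element (ISRE) is GAAA repeated after 2 bases of any kind. The IFN-γ side is given first, with Cxcl9 (chr5:92328030-92328329, minus strand), Gbp2b (chr3:142594597-142594896, plus strand), Cxcl10 (chr5:92348840-92349139, minus strand) and Fpr2 (chr17:17887574-17887873, plus strand).
Cxcl9: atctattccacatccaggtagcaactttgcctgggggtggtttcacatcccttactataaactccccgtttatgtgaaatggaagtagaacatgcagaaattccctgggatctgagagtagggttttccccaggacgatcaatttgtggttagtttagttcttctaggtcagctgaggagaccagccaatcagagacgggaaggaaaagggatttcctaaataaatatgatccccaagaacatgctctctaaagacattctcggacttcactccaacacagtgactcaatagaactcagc
Gbp2b: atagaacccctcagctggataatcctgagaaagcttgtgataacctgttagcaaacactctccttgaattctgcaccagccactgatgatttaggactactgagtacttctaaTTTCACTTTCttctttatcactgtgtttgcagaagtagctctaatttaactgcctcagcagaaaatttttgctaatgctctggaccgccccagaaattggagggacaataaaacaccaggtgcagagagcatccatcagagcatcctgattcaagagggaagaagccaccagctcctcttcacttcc
Cxcl10: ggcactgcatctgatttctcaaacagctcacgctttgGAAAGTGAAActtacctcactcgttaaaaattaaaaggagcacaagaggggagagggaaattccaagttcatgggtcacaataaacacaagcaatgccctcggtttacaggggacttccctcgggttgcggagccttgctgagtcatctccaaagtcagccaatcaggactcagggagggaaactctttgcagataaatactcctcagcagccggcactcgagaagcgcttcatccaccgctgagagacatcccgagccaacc
Fpr2: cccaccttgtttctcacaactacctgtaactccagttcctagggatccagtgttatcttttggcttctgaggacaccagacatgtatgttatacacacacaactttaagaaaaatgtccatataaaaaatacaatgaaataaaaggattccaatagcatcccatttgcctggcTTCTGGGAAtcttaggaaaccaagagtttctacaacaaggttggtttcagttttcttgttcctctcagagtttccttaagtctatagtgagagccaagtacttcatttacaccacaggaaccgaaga
The IL-4 side follows, with Hebp2 (chr10:18546027-18546326, minus strand), Rbp4 (chr19:38125272-38125571, minus strand), Mgl2 (chr11:70130107-70130406, plus strand) and Retnla (chr16:48842359-48842658, plus strand).
Hebp2: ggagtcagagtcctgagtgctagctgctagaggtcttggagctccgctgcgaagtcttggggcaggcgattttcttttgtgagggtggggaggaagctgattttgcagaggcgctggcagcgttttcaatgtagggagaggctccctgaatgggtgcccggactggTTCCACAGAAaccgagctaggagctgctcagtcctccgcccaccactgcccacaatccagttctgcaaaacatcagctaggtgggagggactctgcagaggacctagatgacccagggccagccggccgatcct
Rbp4: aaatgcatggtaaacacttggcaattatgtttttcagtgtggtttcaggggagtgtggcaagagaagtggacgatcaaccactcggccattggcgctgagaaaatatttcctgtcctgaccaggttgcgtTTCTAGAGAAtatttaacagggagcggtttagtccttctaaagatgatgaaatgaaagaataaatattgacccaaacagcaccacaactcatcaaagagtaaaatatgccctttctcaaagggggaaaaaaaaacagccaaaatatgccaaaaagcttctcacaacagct
Mgl2: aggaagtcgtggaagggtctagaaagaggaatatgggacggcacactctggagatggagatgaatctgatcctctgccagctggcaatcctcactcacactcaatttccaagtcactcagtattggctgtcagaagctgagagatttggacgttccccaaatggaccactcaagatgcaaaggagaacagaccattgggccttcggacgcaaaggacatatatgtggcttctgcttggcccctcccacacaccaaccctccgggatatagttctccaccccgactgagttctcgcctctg
Retnla: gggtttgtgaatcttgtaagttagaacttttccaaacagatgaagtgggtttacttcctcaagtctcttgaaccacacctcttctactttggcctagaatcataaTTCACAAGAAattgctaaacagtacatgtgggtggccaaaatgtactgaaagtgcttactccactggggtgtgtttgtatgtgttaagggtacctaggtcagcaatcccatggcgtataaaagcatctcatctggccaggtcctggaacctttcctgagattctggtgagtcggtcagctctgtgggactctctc

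Gbp2b and Cxcl10 held the ISRE core, which began at -137 and -213 from the start site, and Fpr2 held the GAS core at -77. Hebp2, Rbp4 and Retnla held the STAT6 core at -84, -120 and -145, and neither Cxcl9 nor Mgl2 held any of the 3 cores. A match describes letters, not binding. The genes shown were picked for holding a core, by largest change, plus the largest of each side without one. For a gene with several windows, the window with the most matches was shown. The promoters shown therefore do not give the share of genes that hold a core. Promoters were listed for 13531 (60.4%) of the tested genes, in 16900 windows. The ISRE core was in 3.15% of all windows, 5.49% of those of genes called toward IFN-γ and 10.1% where the difference was at least 4-fold, against 2.24% and 2.03% on the IL-4 side. The STAT6 core was in 5.79% of all windows, and in 7.98% on the IL-4 side and 5.9% on the IFN-γ side at 4-fold or more. The GAS core was in 7.34% of all windows, and in 6.1% and 8.78% on those sides. Of the 20 furthest genes, 12 on the IL-4 side had a listed promoter and 3 of these held a core, the STAT6 core in each. On the IFN-γ side 13 had one and 6 of these held a core, GAS in 3, ISRE in 3 and STAT6 in 1. A gene counted if any of its windows held a core. The share of all genes holding any core was not computed, so these counts have no background to be read against.

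Genes of the IFN-γ receptor pathway were higher with IFN-γ. Of 18 tested, 14 were called toward IFN-γ and 0 toward IL-4 (1 toward IL-4 without the IFN-γ array G), with a median difference of -1.58. In 16 of 18 every IFN-γ array lay above every IL-4 array, which 15% of all genes did. The feedback inhibitor gene Socs3 had the largest difference, at -0.83, -1.17, -1.31 and -0.43 with IL-4 and 5.03, 4.80 and 3.34 with IFN-γ (-5.32 ± 0.36). Batf2, a transcription factor of the AP-1 family, read 0.87, 1.23, 0.90 and 1.07 with IL-4 and 6.13, 6.24 and 6.36 with IFN-γ (-5.22 ± 0.22). Irf1 (-2.93 ± 0.25) and Stat2 (-2.30 ± 0.23), transcription factors of the interferon response, were also called. The receptor chains and Jak1 were not called: Ifngr1 at 0.54 ± 0.34, Ifngr2 at -0.31 ± 0.21 and Jak1 at -0.36 ± 0.23. Their 95% intervals, like the others below not adjusted for the number of genes, were -0.16 to 1.24, -0.74 to 0.13 and -0.82 to 0.11. Ifngr1 was the one called toward IL-4 without the IFN-γ array G (0.97).

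The IL-4 receptor and STAT6 pathway was split, with 6 genes called toward IL-4 and 6 toward IFN-γ of 17. Among those toward IL-4 were transcription factors that act downstream of STAT6. Irf4 read 0.55, 0.85, 1.84 and 0.83 with IL-4 and -4.79, -5.18 and -5.85 with IFN-γ (6.29 ± 0.41), and Egr2 6.18, 5.74, 5.73 and 5.61 with IL-4 and 0.17, -0.37 and 0.61 with IFN-γ (5.68 ± 0.41). Batf3 read 3.81, 4.16, 4.85 and 4.16 with IL-4 and -0.49, -0.35 and 0.30 with IFN-γ (4.43 ± 0.35). The groups did not overlap for any of these 3 genes. Among those toward IFN-γ were the receptor chains. Il13ra1, the partner chain of the type II receptor, read -3.67, -4.79, -4.70 and -4.82 with IL-4 and 0.99, 0.93 and 0.52 with IFN-γ (-5.31 ± 0.34), with untreated arrays between them at -2.05 to -1.30 (median -1.83). The shared chain gene Il2rg (-2.66 ± 0.27), Jak3 (-1.75 ± 0.24) and Il4ra (-1.33 ± 0.39, adjusted p = 0.0117) were also higher with IFN-γ, Il4ra no longer called without the IFN-γ array F (-1.16). Stat6 was not called (-0.16 ± 0.18, adjusted p = 0.515), with a 95% interval of -0.52 to 0.20.

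Interferon-inducible GTPases, which act on the membranes around intracellular pathogens, were all called toward IFN-γ (18 of 18, median -4.63). Iigp1, an immunity-related GTPase, read 0.39, 1.87, 0.22 and 0.50 with IL-4 and 7.34, 7.52 and 7.67 with IFN-γ (-6.77 ± 0.39), and the guanylate-binding protein gene Gbp2 2.38, 2.43, 3.27 and 1.00 with IL-4 and 8.23, 8.04 and 8.09 with IFN-γ (-5.85 ± 0.36). After Gbp2b, Gbp4 (-8.50 ± 0.53) and Gbp6 (-6.95 ± 0.35) differed most, Gbp5 by -6.26 ± 0.32, and the immunity-related GTPase genes Igtp and Irgm1 by -4.31 ± 0.18 and -3.45 ± 0.24. Guanylate-binding protein genes are alike in sequence, so single members are uncertain.

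The antiviral genes that type I interferon is known to induce were likewise all called toward IFN-γ (40 of 40, median -2.58). Isg15, a ubiquitin-like protein gene, read 2.59, 3.56, 2.00 and 2.19 with IL-4 and 7.07, 6.86 and 7.09 with IFN-γ, with untreated arrays between them at 4.46 to 5.22 (median 4.74) (-4.42 ± 0.27). Ifit2 read 0.75, 1.30, 0.23 and 0.20 with IL-4 and 6.04, 6.18 and 5.90 with IFN-γ (-5.42 ± 0.27), and its untreated arrays at 3.33 to 4.28 (median 3.88) also lay between the treatments. Ifit1 (-5.06 ± 0.29), the oligoadenylate synthetase-like gene Oasl1 (-5.67 ± 0.30) and the factor gene Irf7 (-3.19 ± 0.28) were further members, and Bst2, which tethers budding virions, had one of the smaller differences (-1.32 ± 0.18).

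In MHC class I presentation 16 of 19 genes were called toward IFN-γ and 0 toward IL-4, with a median of -1.06 (1 toward IL-4 with quantile normalization or without the IFN-γ array G). The peptide editor gene Tapbpl read 1.00, 1.10, 1.71 and 0.93 with IL-4 and 3.82, 4.00 and 4.11 with IFN-γ (-2.79 ± 0.23), and the peptide transporter genes Tap2 (-2.51 ± 0.21) and Tap1 (-2.20 ± 0.24) and the immunoproteasome gene Psmb9 (-1.50 ± 0.18) were among the rest. For MHC class II, which IL-4 and IFN-γ are both known to raise, 10 of 17 were called toward IFN-γ and 0 toward IL-4 (6 and 0 with normexp). H2-Oa, a chain that restrains peptide loading, read -3.36, -3.60, -2.41 and -3.83 with IL-4 and 1.73, 1.19 and 0.65 with IFN-γ (-4.49 ± 0.40). H2-Eb1 read 3.70, 2.74, 3.65 and 3.12 with IL-4 and 5.65, 5.54 and 5.46 with IFN-γ, with untreated arrays at 1.88 to 3.11 (median 2.47) (-2.25 ± 0.31). Cd74, the invariant chain, differed by -1.24 ± 0.30, and the class II activator Ciita was not called (-1.05 ± 0.48, adjusted p = 0.11, 95% interval -2.05 to -0.06).

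**Figure D2:**
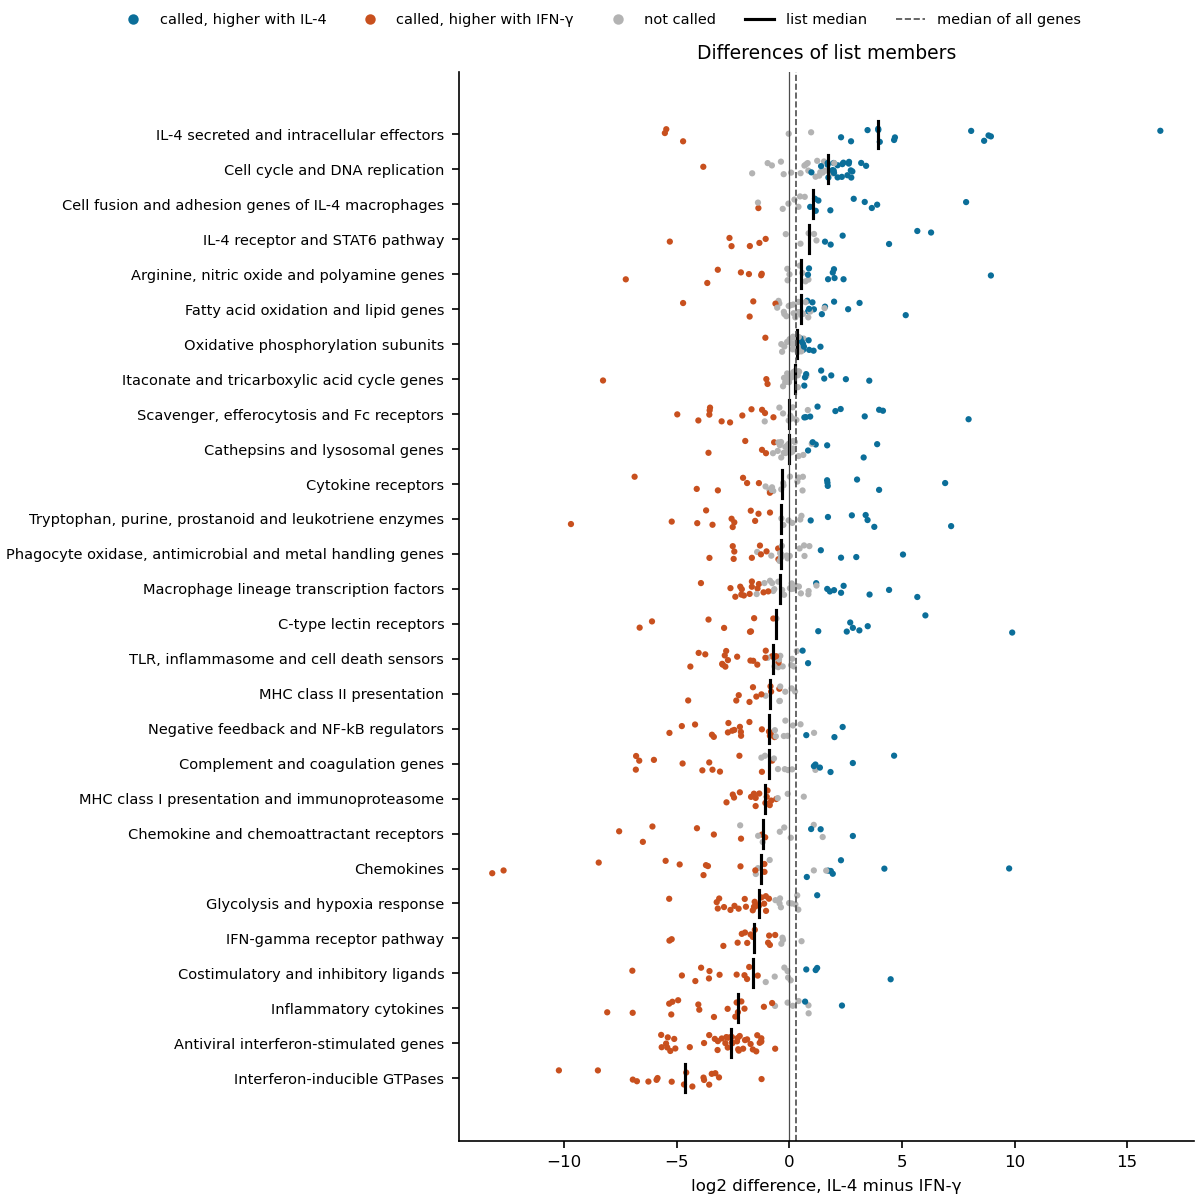
Log2 differences (IL-4 minus IFN-γ) of the tested members of 28 gene lists, with each point a gene, coloured where it was called, and the bar the list median. The dashed line is the median of all genes, 0.30, and the GTPase and antiviral lists lie wholly to its left.

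Among the chemokines 12 were called toward IFN-γ and 7 toward IL-4 of 24 (3 toward IL-4 with normexp). Besides the CXCR3 ligands, Ccl5 read 2.70, 2.67, 3.00 and 2.35 with IL-4 and 8.11, 7.89 and 8.53 with IFN-γ (-5.49 ± 0.27) and Cxcl16 1.13, 1.53, 2.69 and 1.63 with IL-4 and 5.32, 5.39 and 5.63 with IFN-γ (-3.70 ± 0.28). Cxcl2, which attracts neutrophils, differed by -4.87 ± 0.55, and 1 of 4 IL-4 arrays was above background. Toward IL-4 the differences were smaller outside Ccl24, the eosinophil attractant known as eotaxin-2 (at least 479-fold). Ccl6 read 6.02, 6.10, 6.75 and 5.66 with IL-4 and 4.19, 3.48 and 4.95 with IFN-γ (1.93 ± 0.28) and Ccl9 6.63, 6.91, 7.30 and 6.55 with IL-4 and 5.07, 4.39 and 5.56 with IFN-γ (1.84 ± 0.23). Ccl17, a ligand of CCR4 on type 2 T cells, read -3.66, -3.32, -1.68 and -4.21 with IL-4 and -4.84, -4.47 and -5.50 with IFN-γ without overlap (1.72 ± 0.54, adjusted p = 0.0185). Without the IFN-γ array G the Ccl17 difference was 1.44 and without the IL-4 array C 1.21, and neither was called.

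Receptors for chemoattractants leaned the same way, 8 toward IFN-γ and 3 toward IL-4 of 19 (1 toward IL-4 with median scaling). The share toward IL-4, 15.8%, was near the 14.9% of all genes, and that toward IFN-γ was 42.1% against 13.1%. Gpr84, a receptor for medium-chain fatty acids, read -4.99, -5.83, -4.58 and -4.46 with IL-4 and 1.14, 1.64 and 1.84 with IFN-γ (-6.50 ± 0.39), with 2 of 4 IL-4 arrays above background. Ccrl2, a receptor that binds chemerin, read -0.61, -1.13, -1.18 and -1.41 with IL-4 and 5.52, 5.14 and 4.31 with IFN-γ (-6.08 ± 0.30). The leukotriene B4 receptor gene Ltb4r1 was higher with IL-4, at 3.22, 2.49, 2.71 and 3.20 with IL-4 and -0.08, -0.18 and 0.52 with IFN-γ (2.82 ± 0.37). Cx3cr1, the fractalkine receptor, was not called between the treatments (-1.18 ± 0.56, adjusted p = 0.123), both of which lay below its untreated arrays, 0.49 to 2.18 (median 1.47).

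Inflammatory cytokine genes were called toward IFN-γ in 17 of 25 and toward IL-4 in 2, with a median of -2.28. With normexp these were 9, 1 and -0.58, and with median scaling 1 was called toward IL-4. Il1b read -6.68, -5.21, -4.28 and -5.93 with IL-4 and 4.30, 1.74 and 1.64 with IFN-γ, and 2 of 4 IL-4 arrays were above background (-8.09 ± 0.64). Tnf read -1.01, -1.61, -2.48 and -0.93 with IL-4 and 3.75, 3.83 and 3.48 with IFN-γ (-5.19 ± 0.44), with its untreated arrays, -0.48 to 2.00 (median 1.28), overlapping neither group. Tnfsf10, the death ligand TRAIL, differed by -5.24 ± 0.25 and the activin gene Inhba by -4.94 ± 0.37. The angiogenic factor Vegfa read -0.76, 0.17, -0.51 and -0.79 with IL-4 and 5.92, 4.79 and 3.88 with IFN-γ (-5.34 ± 0.53). Il15 (-2.34 ± 0.39) and Il18 (-2.28 ± 0.23), which act on natural killer and T cells, were higher with IFN-γ too. Toward IL-4 stood Edn1, which encodes endothelin-1, at -0.53, -0.36, -0.53 and -0.18 with IL-4 and -3.08, -3.06 and -2.07 with IFN-γ (2.34 ± 0.45). Tgfb1 (0.70 ± 0.26, adjusted p = 0.0451) was the other one, and it was not called without any one of the IFN-γ arrays (0.67, 0.77 and 0.66 without E, F and G), with median scaling (0.34) or normexp (0.57), or without the IL-4 arrays C (0.66) or G (0.59). Il10 was not called (-0.08 ± 0.30, 95% interval -0.70 to 0.55).

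Cytokine receptor genes divided, 6 toward IL-4 and 7 toward IFN-γ of 26. Il1rl1, the receptor for IL-33, read 2.35, 2.51, 2.32 and 2.81 with IL-4 and -4.29, -4.46 and -4.50 with IFN-γ (6.92 ± 0.54, adjusted p = 3.55e-10), and its untreated arrays, 0.23 to 0.86 (median 0.43), lay between. Il27ra (3.01 ± 0.23) and Il6st, the shared gp130 chain (1.68 ± 0.21), were also higher with IL-4. Toward IFN-γ stood Il15ra (-4.11 ± 0.33), the IL-1 decoy receptor gene Il1r2 (-3.17 ± 0.40) and Il10ra (-1.88 ± 0.32). Csf1r, the receptor of the growth factor in the medium, was not called (0.36 ± 0.28, adjusted p = 0.357).

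The effector genes of IL-4 macrophages were called toward IL-4 in 13 of 18 and toward IFN-γ in 3, with a median of 3.95. The share toward IFN-γ, 16.7%, was near the 13.1% of all genes. Chil3, a secreted chitinase-like protein, read 5.59, 5.00, 6.58 and 4.69 with IL-4 and 0.45, 1.38 and 2.72 with IFN-γ (3.95 ± 0.47). The growth factor Igf1 read 6.61, 6.72, 7.03 and 6.68 with IL-4 and 2.91, 2.11 and 3.42 with IFN-γ (3.95 ± 0.24) and lay on the IL-4 arrays above, and on the IFN-γ arrays below, its untreated range, 4.87 to 5.34 (median 5.18). F13a1, a coagulation transglutaminase chain, differed by 4.65 ± 0.59. The 3 toward IFN-γ were Tgm2, a tissue transglutaminase often listed as an IL-4 marker, the IL-1 receptor antagonist gene Il1rn, and the cholesterol hydroxylase gene Ch25h. Tgm2 read 1.48, 2.21, 2.49 and 1.77 with IL-4 and 7.52, 7.60 and 7.23 with IFN-γ (-5.46 ± 0.25), with untreated arrays at 3.16 to 4.04 (median 3.62). Il1rn differed by -5.53 ± 0.42 and Ch25h by -4.72 ± 0.69. Flt1, the VEGF receptor, was not called (0.97 ± 0.40, adjusted p = 0.0744), and both treatments lay above its untreated arrays, -0.56 to 0.83 (median 0.47).

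C-type lectin receptors, which recognise sugars of microbes and of the body, split evenly, 8 to 8 of 17. Mrc1, the mannose receptor, read 6.03, 6.06, 6.05 and 6.12 with IL-4 and -0.24, 0.00 and 0.32 with IFN-γ (6.04 ± 0.30, adjusted p = 7.35e-14). The untreated arrays, 3.75 to 4.75 (median 4.43), lay between, and the 4 IL-4 arrays lay close together. Clec10a (3.48 ± 0.42), the Dcir family genes Clec4a2 (2.82 ± 0.30) and Clec4a3 (2.70 ± 0.34), and the glucan receptor gene Clec7a (2.55 ± 0.48) were also higher with IL-4. Clec4e, the receptor Mincle for mycobacterial cord factor, went the other way at 0.89, -0.13, -0.70 and 1.00 with IL-4 and 6.65, 5.90 and 6.53 with IFN-γ (-6.10 ± 0.32). Clec12a (-2.90 ± 0.25), an inhibitory receptor, and Clec1b (-3.59 ± 0.33) were higher with IFN-γ, and Clec5a was not called (-0.58 ± 0.32, adjusted p = 0.192).

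Fusion and adhesion genes were called toward IL-4 in 10 of 18 and toward IFN-γ in 1 (6 and 1 with median scaling). Atp6v0d2, a proton pump subunit needed for cell fusion, read 2.00, 1.75, 2.03 and 1.53 with IL-4 and -1.54, -2.14 and -2.53 with IFN-γ (3.90 ± 0.35), and the macrophage elastase gene Mmp12 4.55, 2.79, 3.14 and 3.39 with IL-4 and -0.58, 0.15 and -0.16 with IFN-γ (3.66 ± 0.39). Dcstamp, a fusion protein, differed by 2.86 ± 0.45, and the tetraspanin gene Cd9 by 1.82 ± 0.27. Ocstamp, another fusion protein, was not called (0.68 ± 0.48, adjusted p = 0.299), and both treatments lay above the untreated arrays, -5.09 to -2.58 (median -3.91).

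Scavenger, efferocytosis and Fc receptor genes were called 10 toward IL-4 and 12 toward IFN-γ of 31 (5 toward IL-4 with median scaling). Fcgr2b, the inhibitory Fc receptor, read 5.43, 5.73, 5.90 and 5.07 with IL-4 and 2.46, 1.89 and 2.21 with IFN-γ (3.35 ± 0.27), while the activating receptor genes Fcgr4, 2.39, 2.63, 2.42 and 1.41 with IL-4 and 5.49, 5.79 and 5.97 with IFN-γ (-3.54 ± 0.40), and Fcgr1 (-3.01 ± 0.25) were higher with IFN-γ. Gas6 bridges apoptotic cells to the receptors Axl and Mertk. It read 5.23, 5.79, 5.29 and 5.54 with IL-4 and 0.42, 1.24 and 2.77 with IFN-γ (3.99 ± 0.44), and its untreated arrays, 5.86 to 6.32 (median 6.05), lay above both groups. Axl (-2.63 ± 0.24) and Mertk (-2.09 ± 0.58) were higher with IFN-γ. Cd300e (-4.98 ± 0.39), Pilra (-3.52 ± 0.34) and Pilrb1 (-4.04 ± 0.27), paired immune receptors, were higher with IFN-γ. For Pilrb1 the IL-4 arrays read -2.01, -2.31, -1.93 and -1.53 against 2.02 to 3.12 (median 2.45) untreated, while the IFN-γ arrays, 1.92, 1.95 and 2.42, lay in that range or just below it. Cd36, a scavenger receptor for oxidised lipoprotein, was not called (-0.03 ± 0.24, 95% interval -0.53 to 0.47).

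Arginine is the substrate of both arginase and nitric oxide synthase, and the enzymes of these routes divided 8 to 7 of 22 (4 to 7 with median scaling). Nos2, the inducible nitric oxide synthase, read 0.94, 0.16 and -1.25 with IFN-γ and was above background on no IL-4 array (at least 51.9-fold higher). Ass1, which remakes arginine from citrulline, differed by -3.18 ± 0.23, and Gch1, the first enzyme of the cofactor tetrahydrobiopterin, read 0.98, 0.71, 0.60 and 1.14 with IL-4 and 3.04, 3.01 and 2.98 with IFN-γ (-2.15 ± 0.20). The later enzymes of that cofactor went the other way: Pts (0.87 ± 0.23), Spr (1.72 ± 0.36) and the recycling enzyme gene Qdpr (1.93 ± 0.29) were higher with IL-4, the first 2 not with median scaling. The arginine transporter gene Slc7a2 read -0.70, -0.68, -0.57 and -0.73 with IL-4 and -1.93, -2.32 and -3.78 with IFN-γ (2.01 ± 0.54). Its untreated arrays, -6.85 to -3.49 (median -5.76), lay below the IL-4 arrays and the IFN-γ arrays E and F, and only the IFN-γ array G fell within their range. Without the IFN-γ array G the difference of Slc7a2 was 1.46 and was not called. Arg2, the mitochondrial arginase, was higher with IFN-γ (-3.64 ± 0.78), with 2 of 4 IL-4 arrays above background, and was not called with normexp.

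In the list of itaconate and citrate cycle genes 8 were called toward IL-4 and 3 toward IFN-γ of 27 (4 and 3 with median scaling, 5 and 1 with normexp, 6 and 1 without the IFN-γ array E). The share toward IFN-γ, 11.1%, was near the 13.1% of all genes. The mitochondrial isocitrate dehydrogenase gene Idh2 read 0.99, 1.00, 0.98 and 1.08 with IL-4 and -3.08, -2.70 and -1.83 with IFN-γ (3.55 ± 0.34), the cytosolic Idh1 0.87, 0.98, 1.29 and 0.75 with IL-4 and -1.62, -1.57 and -1.43 with IFN-γ (2.51 ± 0.26) and the fumarase gene Fh1 3.80, 3.84, 4.19 and 3.64 with IL-4 and 1.76, 1.81 and 2.45 with IFN-γ (1.86 ± 0.21). For Idh1 the IL-4 arrays lay above the untreated range, 0.09 to 0.63 (median 0.22), and the IFN-γ arrays below it. The citrate synthase gene Cs (0.09 ± 0.23) and the 4 succinate dehydrogenase subunit genes were not called. Acod1 takes cis-aconitate out of the cycle to make itaconate, and read 0.11, -0.52, -0.40 and 0.22 with IL-4 and 7.92, 8.03 and 8.42 with IFN-γ, with untreated arrays at 2.42 to 3.63 (median 3.06).

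Glycolysis and hypoxia response genes were called toward IFN-γ in 21 of 31 and toward IL-4 in 1 (0 with median scaling), with a median of -1.35. The lactate exporter gene Slc16a3 read 4.14, 3.81, 3.82 and 4.08 with IL-4 and 7.16, 7.02 and 7.25 with IFN-γ (-3.18 ± 0.25), the regulator gene Pfkfb3 1.38, 1.09, 1.43 and 1.00 with IL-4 and 4.41, 4.37 and 4.57 with IFN-γ (-3.23 ± 0.41) and the glucose transporter gene Slc2a1 3.84, 2.96, 2.81 and 3.51 with IL-4 and 5.71, 5.42 and 6.02 with IFN-γ (-2.44 ± 0.38). The oxygen-sensing factor Hif1a (-2.61 ± 0.40), hexokinases Hk2 (-1.62 ± 0.27) and Hk3 (-2.25 ± 0.22), Pgk1 (-1.54 ± 0.23), Ldha (-1.12 ± 0.24) and Aldoa (-0.90 ± 0.21) were higher with IFN-γ too. Pfkfb4, another regulator of the pathway, was the exception toward IL-4 (1.24 ± 0.28), not called with median scaling.

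Subunits of oxidative phosphorylation differed little: 9 of 35 were called toward IL-4, 1 toward IFN-γ and 25 in neither direction, with a median of 0.36 against 0.30 over all genes. The count toward IL-4 was not stable, at 2 without the IFN-γ array E, 2 without F, 21 without G and 5 without the IL-4 array C, and at 24 with quantile normalization, 2 with normexp and 1 with median scaling. The median was 0.58 and 0.16 with the first 2 of these and -0.0013 with median scaling. Within experiment G the median was -0.12 and 13 of 35 subunits were above 0. Ndufb5, of complex I, read 1.87, 2.02, 2.23 and 1.76 with IL-4 and 0.40, 0.43 and 0.95 with IFN-γ (1.38 ± 0.21), and Uqcrc1, of complex III, 5.55, 5.49, 5.72 and 5.96 with IL-4 and 4.20, 4.27 and 5.35 with IFN-γ (1.08 ± 0.26), a call lost with median scaling. Cycs, which encodes cytochrome c, was higher with IFN-γ (-1.06 ± 0.27).

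Lipid genes were called 12 toward IL-4 and 4 toward IFN-γ of 36 (6 toward IL-4 with median scaling). The share toward IFN-γ, 11.1%, was near the 13.1% of all genes. The nuclear receptor gene Pparg read 4.25, 4.39, 4.40 and 4.02 with IL-4 and 2.43, 2.26 and 3.36 with IFN-γ (1.58 ± 0.23). Fasn, for fatty acid synthase, read 5.93, 5.36, 4.12 and 5.81 with IL-4 and 0.97, 2.15 and 3.45 with IFN-γ (3.12 ± 0.72), and the cholesterol synthesis genes Sqle (2.61 ± 0.69) and Hmgcs1 (1.99 ± 0.54) were higher with IL-4 too. The oxysterol receptor gene Nr1h3 (-1.76 ± 0.20) and its target Abca1, a cholesterol exporter (-1.60 ± 0.39), were higher with IFN-γ. Among enzymes of fatty acid oxidation, Acaa2 differed by 1.09 ± 0.23 and Hadha by 0.80 ± 0.18, neither called with median scaling, and Cpt2 was not called (0.05 ± 0.22).

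The cyclooxygenase genes Ptgs1 and Ptgs2 went opposite ways. Ptgs1, the constitutive cyclooxygenase, read 4.68, 3.78, 4.05 and 4.15 with IL-4 and -3.94, -3.85 and -1.28 with IFN-γ (7.18 ± 0.54, adjusted p = 1.56e-10), with untreated arrays at -0.73 to 1.16 (median -0.08). Ptgs2 stood at the IFN-γ end, and the prostaglandin E synthase gene Ptges was also higher with IFN-γ (-3.70 ± 0.37). The leukotriene enzyme genes Alox5, 2.29, 0.67, 0.00 and 2.54 with IL-4 and -3.19, -3.50 and -0.51 with IFN-γ (3.77 ± 0.74), and Ltc4s (2.78 ± 0.31) were higher with IL-4. The IL-4 arrays of Alox5 spread widely, and the lowest stood above the highest IFN-γ array by less than that spread. In tryptophan breakdown Ido1 read -4.06, -4.25, -4.23 and -4.71 with IL-4 and 1.68, 1.13 and -0.08 with IFN-γ (-5.22 ± 0.51) and Kynu differed by -3.41 ± 0.61, both higher with IFN-γ. Over the whole list of tryptophan, purine, prostanoid and leukotriene enzymes 7 were called toward IL-4 and 12 toward IFN-γ of 25 (4 toward IL-4 with normexp).

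**Figure D3:**
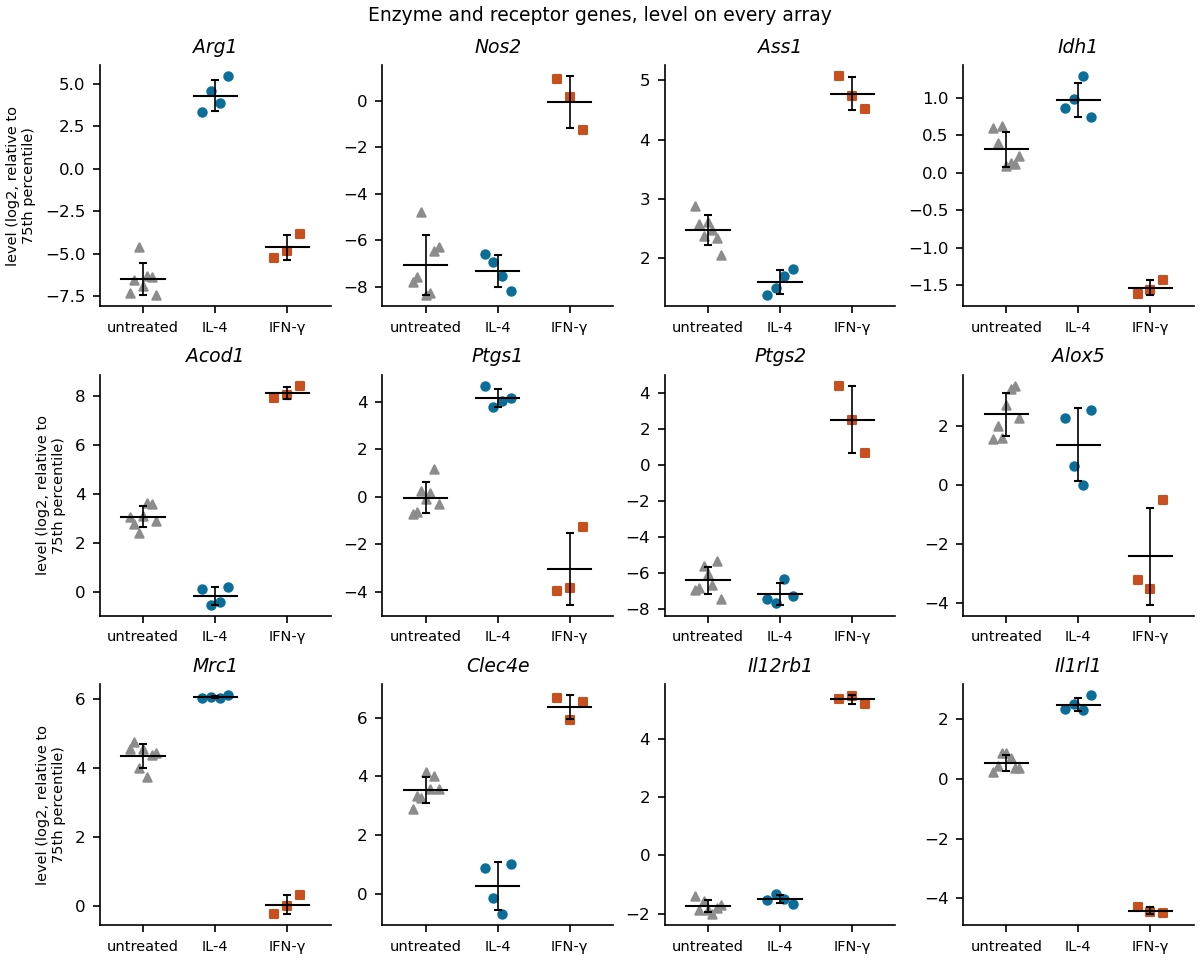
Levels of 12 enzyme and receptor genes on the untreated (triangles, 7 arrays), IL-4 (circles, 4 arrays) and IFN-γ arrays (squares, 3 arrays), as log2 intensity relative to the 75th percentile of the array, with the mean (line) and SD (bar). Mrc1 and Il1rl1 lie above the untreated arrays with IL-4 and below them with IFN-γ, and Acod1 and Clec4e do the reverse.

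Sensors of microbes and cell damage were called toward IFN-γ in 19 of 34 and toward IL-4 in 2, a number that fell to 0 without the IFN-γ array E, with median scaling and with normexp. The peptidoglycan sensor genes Nod2, -1.50, -1.67, -1.75 and -1.17 with IL-4 and 2.80, 2.80 and 3.03 with IFN-γ (-4.40 ± 0.23), and Nod1 (-4.03 ± 0.23) differed most. Cd14, which hands LPS to TLR4, read 2.41, 2.89, 3.09 and 2.68 with IL-4 and 7.04, 6.45 and 6.02 with IFN-γ (-3.73 ± 0.22), and Tlr2 1.91, 1.56, 1.86 and 1.25 with IL-4 and 4.15, 4.49 and 4.90 with IFN-γ (-2.87 ± 0.28). For Tlr2 the untreated arrays, 4.20 to 4.96 (median 4.51), overlapped the IFN-γ arrays and lay above the IL-4 arrays. The inflammatory caspase genes Casp4 (-2.80 ± 0.23) and Casp1 (-1.73 ± 0.20), the necroptosis effector gene Mlkl (-2.98 ± 0.21) and the adaptor gene Myd88 (-1.42 ± 0.17) were higher with IFN-γ. Tlr4 itself was not called (-0.49 ± 0.31, 95% interval -1.13 to 0.14).

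For costimulation 12 genes were called toward IFN-γ and 4 toward IL-4 of 22 (1 toward IL-4 with median scaling). The share toward IL-4, 18.2%, was near the 14.9% of all genes. Cd86, a ligand of CD28 on T cells, read -1.40, -0.54, 0.07 and -1.37 with IL-4 and 3.50, 3.52 and 3.07 with IFN-γ (-4.17 ± 0.36) and Cd40 0.69, 1.15, 0.91 and 1.32 with IL-4 and 4.53, 4.97 and 4.27 with IFN-γ (-3.57 ± 0.22). The ligands of the inhibitory receptor PD-1 parted: Cd274 (PD-L1) read 3.51, 2.58, 3.41 and 2.31 with IL-4 and 7.45, 6.83 and 6.34 with IFN-γ (-3.92 ± 0.38) and Pdcd1lg2 (PD-L2) -0.45, 0.13, 1.21 and -0.50 with IL-4 and -4.10, -4.37 and -4.72 with IFN-γ (4.50 ± 0.66). The untreated arrays of Pdcd1lg2 ran from -7.55 to -4.25 (median -6.93). Cd80 was not called (-0.22 ± 0.26, adjusted p = 0.54).

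Antimicrobial and metal genes were called 10 toward IFN-γ and 4 toward IL-4 of 28, with 6 toward IFN-γ without the IFN-γ array G or without the IL-4 array B and 4 with normexp. The share toward IL-4, 14.3%, was near the 14.9% of all genes, and that toward IFN-γ was 35.7% against 13.1%. Cybb, the catalytic subunit of the phagocyte oxidase, read 3.23, 3.22, 3.52 and 2.75 with IL-4 and 5.86, 5.66 and 5.57 with IFN-γ (-2.51 ± 0.29). Slc11a1, which pumps metal ions out of the phagosome, differed by -2.44 ± 0.17, and Sod2, the mitochondrial superoxide dismutase, by -2.47 ± 0.23. The transferrin receptor gene Tfrc was higher with IL-4, at 2.74, 2.70, 3.15 and 2.22 with IL-4 and -2.72, -2.07 and -2.23 with IFN-γ (5.05 ± 0.33, adjusted p = 9.69e-12), with untreated arrays at -0.69 to 0.27 (median 0.09). The metallothionein gene Mt1 (2.29 ± 0.36) was higher with IL-4 and Hmox1, for heme oxygenase, was not called (-0.12 ± 0.48).

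Complement and coagulation genes were called toward IFN-γ in 12 of 26 and toward IL-4 in 6 (2 with median scaling). C1s1, a protease of the classical route, differed by -6.82 ± 0.30, with 1 of 4 IL-4 arrays above background. Cfb, of the alternative route, read 0.22, 0.74, 0.64 and -0.02 with IL-4 and 6.60, 6.45 and 6.18 with IFN-γ (-6.01 ± 0.36), and C3 and C4b differed by -3.41 ± 0.25 and -4.74 ± 0.34. The clotting factor gene F7 was higher with IL-4 (2.82 ± 0.30), and Thbs1, for thrombospondin, read -3.94, -2.42, -1.77 and -4.67 with IL-4 and 5.02, 3.67 and 2.12 with IFN-γ (-6.80 ± 0.87).

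Among lysosomal genes 21 of 32 were not called, 6 were called toward IL-4 (3 with normexp or median scaling) and 5 toward IFN-γ. These shares, 18.8% and 15.6%, were near the 14.9% and 13.1% of all genes. The proton pump gene Atp6v0a1 read 3.72, 3.42, 3.33 and 3.73 with IL-4 and -0.08, 0.28 and 0.56 with IFN-γ (3.30 ± 0.27). Ctsc, a protease that activates other proteases, read 3.72, 4.07, 4.21 and 3.19 with IL-4 and 7.44, 7.41 and 7.32 with IFN-γ (-3.59 ± 0.30), and Ctsh differed by -1.96 ± 0.25. Ctsl was not called (-0.03 ± 0.20, 95% interval -0.44 to 0.39).

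Cell cycle genes were lower with IFN-γ in the arrays of experiments E and F. Of 45 genes 23 were called toward IL-4 and 1 toward IFN-γ, with a median of 1.70, and in 18 every IL-4 array lay above every IFN-γ array, which 19% of all genes did. Cdc20, an activator of chromosome separation, read 4.04, 3.59, 3.52 and 4.20 with IL-4 and -0.50, -0.38 and 2.17 with IFN-γ (3.41 ± 0.61), Plk1, a mitotic kinase, 3.37, 2.97, 2.83 and 3.76 with IL-4 and -0.17, -0.11 and 1.58 with IFN-γ (2.80 ± 0.51) and the proliferation marker Mki67 4.77, 4.48, 4.08 and 4.65 with IL-4 and 2.26, 2.07 and 3.25 with IFN-γ (1.97 ± 0.28). For each of them the IFN-γ array G lay nearer to the IL-4 arrays than E and F did. Over the 45 genes the median level relative to the untreated arrays was 0.13, -0.21, -0.72 and 0.44 on the IL-4 arrays A, B, C and G, and -2.51, -2.34 and -0.54 on the IFN-γ arrays E, F and G. Array G was above both E and F in 42 of the 45 genes. Within experiment G 39 of 45 genes were above 0, with a median of 1.13. The count toward IL-4 was 14 without the IFN-γ array E, 15 without F and 33 without G, and 11 with median scaling, under which 2 were called toward IFN-γ. Ccnd2, a G1 cyclin, was higher with IFN-γ, at 0.37, 0.71, -0.51 and 1.69 with IL-4 and 3.78, 4.34 and 5.04 with IFN-γ (-3.82 ± 0.49).

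**Figure D4:**
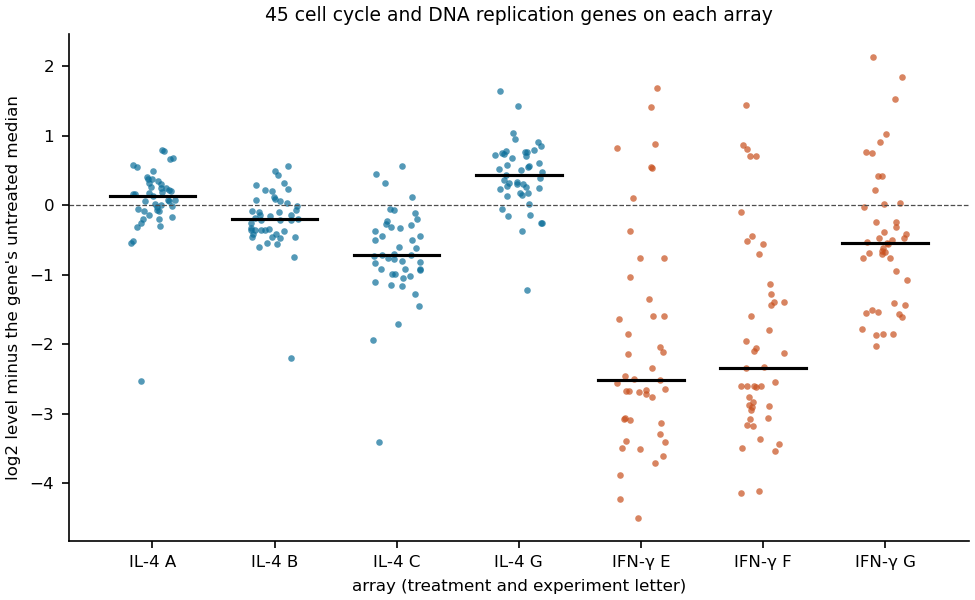
Levels of 45 cell cycle and DNA replication genes on each IL-4 and IFN-γ array, as log2 level minus the gene's median over the 7 untreated arrays, with each point a gene and the bar the median. The IFN-γ arrays E and F have medians of -2.51 and -2.34, and the IFN-γ array G has one of -0.54.

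Inhibitors and NF-κB regulators were called toward IFN-γ in 18 of 29 and toward IL-4 in 3 (1 with median scaling). Nfkbiz, a nuclear regulator of NF-κB, read -2.65, -2.93, -2.49 and -3.04 with IL-4 and 2.17, 2.14 and 1.68 with IFN-γ (-4.77 ± 0.40), the deubiquitinase gene Tnfaip3 1.22, 0.93, 0.87 and 0.96 with IL-4 and 4.95, 4.25 and 3.84 with IFN-γ (-3.35 ± 0.24), and Nfkbie and Nfkbia differed by -4.19 ± 0.21 and -2.73 ± 0.19. Socs1 read 5.53, 5.10, 5.80 and 5.81 with IL-4 and 6.44, 6.41 and 6.42 with IFN-γ (-0.86 ± 0.27), with both treatments above its untreated arrays at -0.06 to 0.87 (median 0.52). It was not called without the IFN-γ array E (-0.85) or the IL-4 array B (-0.71). Socs2 went toward IL-4 (2.37 ± 0.49), and Cish, of the same family, was not called (1.10 ± 0.71).

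Of 42 transcription factor genes 9 were called toward IL-4 and 14 toward IFN-γ. Besides Egr2 and Batf3, Cebpa read 1.77, 1.89, 2.70 and 1.92 with IL-4 and -1.60, -1.79 and -1.07 with IFN-γ (3.56 ± 0.38), and the nuclear receptor partner gene Rxra 2.54, 2.82, 2.97 and 2.82 with IL-4 and 0.39, -0.14 and 0.88 with IFN-γ (2.41 ± 0.30). Cebpb, a family member induced in inflammation, read 4.53, 4.08, 3.83 and 4.53 with IL-4 and 6.60, 5.84 and 6.84 with IFN-γ (-2.18 ± 0.27), and Bcl6, a repressor, differed by -2.02 ± 0.21.

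Beside the untreated cells, IL-4 had 1293 genes higher (5.77%) and 1239 lower (5.53%), and IFN-γ 2842 higher (12.7%) and 2961 lower (13.2%). Both comparisons use the same untreated arrays, so each gene's values are given side by side. Against untreated cells Mrc1 differed by 1.72 ± 0.24 with IL-4 and by -4.32 ± 0.27 with IFN-γ, and Tfrc by 2.80 ± 0.27 and -2.25 ± 0.29. Both genes rose with IL-4 and fell with IFN-γ. Oasl1 did the reverse, at -2.42 ± 0.24 and 3.24 ± 0.27, and so did Tgm2 at -1.65 ± 0.21 and 3.81 ± 0.23. Slc16a3 differed from untreated by -0.51 ± 0.21 with IL-4, which was not called, and 2.67 ± 0.23 with IFN-γ, and Vegfa by -1.16 ± 0.43, also not called, and 4.17 ± 0.48. Tlr2 fell with IL-4, at -2.89 ± 0.23, while -0.03 ± 0.25 with IFN-γ was not called. Socs1 rose with both, by 5.07 ± 0.22 and 5.93 ± 0.24.

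The difference between the treatments was also set against the same difference in arrays that had LPS for the last 4 h, to ask which gaps persist. The test of the change in the gap called 1213 genes (5.42%). Of the 20 genes furthest to IFN-γ without LPS 19 were called, each with a smaller gap with LPS, and of the 20 furthest to IL-4 4 were, 3 with a smaller gap. These genes were picked by the gap without LPS, which enters this test. The gap closed to within its error for Il1b, from -8.09 ± 0.64 to -0.06 ± 0.64 (change -8.03 ± 0.91, adjusted p = 1.25e-06), and Acod1 ended at -0.30 ± 0.24. In the lists it narrowed in 18 of 18 GTPase genes and 37 of 40 antiviral genes, whose medians were -0.69 and -0.19 with LPS. Of 31 glycolysis genes 2 were called, and their median gap was -1.27 with LPS against -1.35 without. On the IL-4 side the gap of Arg1 was 9.05 ± 0.68, of Ptgs1 6.30 ± 0.54 and of Mgl2 9.29 ± 0.37 with LPS, and their changes were not called. Ccl17 widened from 1.72 ± 0.54 to 8.94 ± 0.54 (adjusted p = 4.83e-07), and the metallothionein gene Mt2, not called without LPS (0.89 ± 0.40), reached 6.65 ± 0.40 (adjusted p = 1.71e-07). Egr2 narrowed from 5.68 ± 0.41 to 0.98 ± 0.41 (adjusted p = 5.20e-06).

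**Figure D5:**
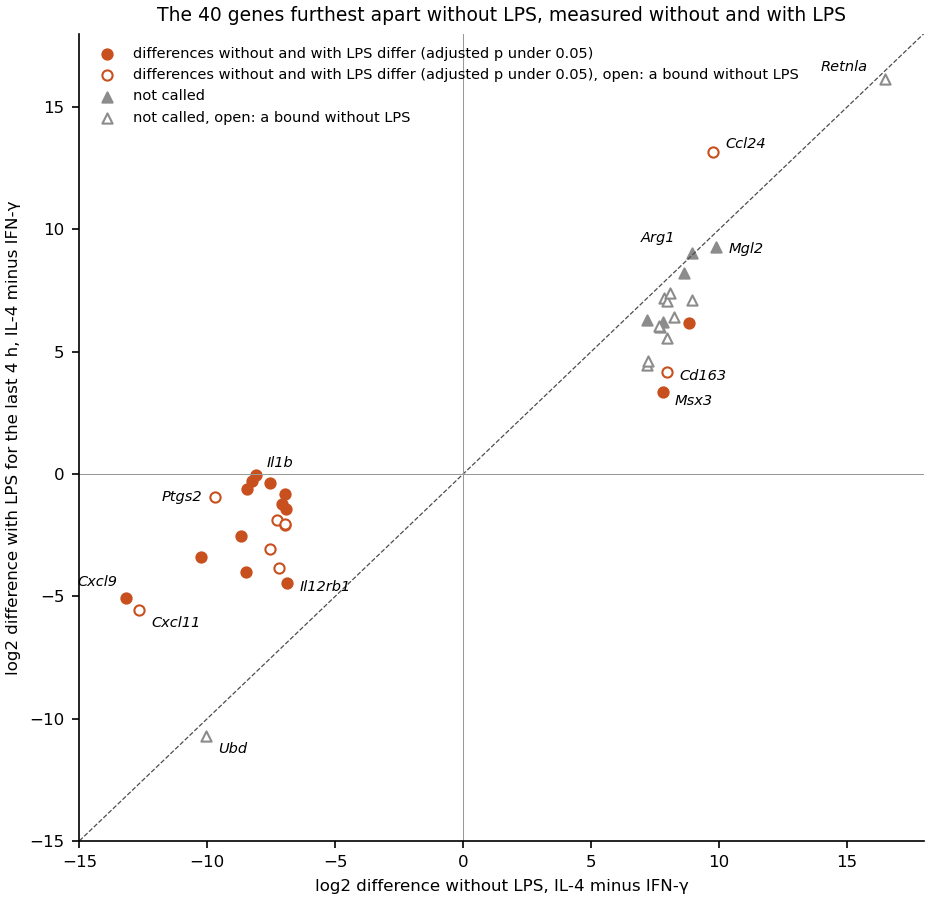
Difference between IL-4 and IFN-γ (log2) without LPS and with LPS for the last 4 h, for the 20 genes furthest to each side without LPS, with circles where the 2 differences were called different. Open symbols are genes for which only a bound can be given without LPS, and the dashed line marks equal differences: the genes on the IFN-γ side lie above it except Ubd.

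The 13 macrophage markers, of which 4 were called toward IFN-γ and 0 toward IL-4, had a summed level on the linear scale of 687 to 1122 with IL-4 and 1104 to 1713 with IFN-γ. Markers of other cell types were measured on the same arrays, and many were also well above background on every array of a treatment. Such markers numbered, for IL-4 and IFN-γ, 5 and 5 of 8 for B cells, 8 and 7 of 9 for neutrophils, and 5 and 7 of 9 for dendritic cells. They numbered 6 and 7 of 8 for osteoclasts, 6 and 5 of 9 for mast cells and basophils, and 4 and 4 of 10 for T and natural killer cells. For stromal cells they were 4 and 5 of 8. For B cells 0 of 8 tested markers were called, for T and natural killer cells 2 of 9, both higher with IFN-γ. The summed level of the T and natural killer cell markers was 7.93 to 20.7 with IL-4 and 17.7 to 30.6 with IFN-γ. Cd3d, Cd247 and Ncr1 were above background on no array of either group. Of 9 neutrophil markers 1 was called each way, and their summed level was 15.2 to 24.7 with IL-4 and 14.6 to 49.2 with IFN-γ, and Elane, which defines their precursors, was above background on none. Of 8 dendritic cell markers 4 were called toward IFN-γ, with Siglech and Cd209a above background on none of the 7 arrays, while the summed level was 24.4 to 49.0 with IL-4 and 6.03 to 9.05 with IFN-γ. Itgax, which macrophages also express, read 5.40, 4.58, 5.60 and 5.18 with IL-4 and 1.79, 2.07 and 2.95 with IFN-γ, without overlap. It was not called (2.92 ± 1.51, adjusted p = 0.159). That standard error rests on the spread within all groups of the fit, including the untreated cells and those with LPS. The missing call of Itgax therefore does not mean that its levels with IL-4 and IFN-γ were alike. Of 8 osteoclast markers 3 were called toward IL-4, with summed levels of 19.4 to 26.4 and 9.61 to 16.7, and Calcr, which defines that cell, was above background on none of the 7 arrays. Of mast cell and basophil markers 1 of 9 was called toward IFN-γ, and Mcpt8 was above background on none. Their summed levels were 0.489 to 1.01 with IL-4 and 2.62 to 3.32 with IFN-γ. A summed level follows the brightest markers of a list. For T and natural killer cells, mast cells and basophils, and dendritic cells, the median differences were 0.59, 0.65 and -1.01. These medians went the other way from the summed levels. Stromal markers were called toward IFN-γ in 1 of 8, eosinophil markers toward IL-4 in 2 of 4 and erythroid markers toward IL-4 in 1 of 4. Of all genes 13.1% were called toward IFN-γ and 14.9% toward IL-4. The part of these cell types in the differences was not tested.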

How the data were processed

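Each sample was hybridised to 1 Agilent 1-colour array. Per the file headers, the deposited intensities were processed within each array by the authors with Agilent Feature Extraction (9.5.1), which detrended the signal and applied no scaling between arrays. From these, log2 of the processed signal was taken and the array's 75th percentile subtracted. Control spots and outlier spots were left out, and the spots of a probe were averaged. A gene took its brightest probe, and 22393 genes well above background on at least 3 of the 28 arrays were tested. Symbols came from RefSeq where the accession or name matched (22951 probes by accession, 6659 by symbol, 3109 by synonym) and from the array design for 8455 of 41174 probes. The 6 groups were fitted with limma (3.58.1) in R (4.3.3) on all 28 arrays, which share 1 estimate of the spread, and p-values were adjusted by Benjamini and Hochberg over the tested genes. In simulated data of 22393 genes, 100 were changed 2-fold and 100 others 4-fold, and arrays varied independently. The fit recovered 25 of 100 genes with a true 2-fold change and 56 of 100 with a true 4-fold change. In the data themselves 28% of genes were called and arrays on 1 slide deviated together, so these shares do not measure the power of this comparison. A gene not called may still differ. The number of arrays limits the precision. The experiments were described in the series as independent, and p-values measure the spread between their arrays. Of 46 pairs of arrays that share an experiment letter, 26 correlated at 0.1 or less in their deviations from the group means, so the letter was not used as a pairing, although the IL-4 and IFN-γ arrays G correlated at 0.443. Arrays on 1 slide deviated together (0.029 to 0.814, median 0.448, 32 pairs). No slide held both an IL-4 and an IFN-γ array without LPS. With the slide as a block, which compares these treatments only through arrays of other groups, 3578 genes were higher with IL-4 and 3472 with IFN-γ. The genes described were the 20 furthest in each direction, above background on every array of the brighter group, and members of the gene lists. Members and lists were chosen with earlier results of these data known. The series value table was not used here because the order of its columns is in doubt. Some list members that enter the counts are not reported here by name.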

Additional observations from a re-analysis of the deposited data

Results flagged for a closer look

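Some arrays stood apart from the rest of their group. Among the 87 genes whose 4 IL-4 levels are given, 4 had 1 array far from the other 3: Il13ra1 read -3.67 on array A, Iigp1 1.87 on array B, Cebpa 2.70 on array C and Cxcl11, not above background there, -8.15 on array G. Each of these arrays still lay on the same side of the 3 IFN-γ arrays as the rest of its group. Among the 28 genes whose untreated range is given, Arg1 had 1 untreated array at -4.61, above the other 6. Chance alone gives such a flag in about 1 in 20 groups.

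The gap between the treatments differed without and with LPS by limma's test of the difference. The gap without LPS minus that with LPS was -8.03 for Il1b (adjusted p = 1.25e-06), -7.97 for Acod1 (adjusted p = 4.50e-14), -7.21 for Ccl17 (adjusted p = 4.83e-07), -5.76 for Mt2 (adjusted p = 1.71e-07) and 4.70 for Egr2 (adjusted p = 5.20e-06). The gap was smaller with LPS for Il1b, Acod1 and Egr2, whose differences with LPS were not called, and larger toward IL-4 for Ccl17 and Mt2.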

How the results depend on the processing

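Of the 190 named genes that were called, 176 kept their direction and their call under each alternative tried, and none reversed. These genes were picked mainly for large differences in the same data, which favours such agreement. The share over all called genes was not computed. The count of 3334 genes higher with IL-4 became 1366 with normexp background correction, 1329 with median scaling and 2201 without the IFN-γ array E, and the 2926 higher with IFN-γ became 1703 with normexp. Leaving out 1 array at a time gave 2201 to 3625 genes higher with IL-4 and 2309 to 3030 higher with IFN-γ. With the experiment letter as a replicate block, 2524 and 2504 genes were called, and against untreated cells 924 and 995 with IL-4 and 2558 and 2453 with IFN-γ. Only the 7 arrays compared gave 2752 and 2224. The alternatives for the following comparisons were chosen after seeing the data. For IL-4 against untreated cells, scan day as a block gave 2064 lower, normexp 361 higher and 375 lower, and median scaling 750 and 777, with 994 to 1465 higher and 938 to 1343 lower when 1 array was left out. For IFN-γ against untreated cells, normexp gave 1679 higher and 1005 lower and median scaling 1143 lower, with 2188 to 2841 higher and 1808 to 3005 lower when 1 array was left out. The change of the gap with LPS was called in 3373 genes where the slide was a block, 2441 where the day of scanning was, 461 after normexp and 709 after median scaling, and in 920 to 1326 when 1 array was left out. The cause of these shifts was not tested. In the shorter promoter window (100 bases before to 50 after the start), the GAS core was in 3.01% and 3.54% of windows of genes called toward IL-4 and IFN-γ (3.33% of all windows), the STAT6 core in 2.59% and 2.32% (2.28%), and the ISRE core in 0.839% and 2.97% (1.3%). At 4-fold or more in that window, the STAT6 core was in 3.48% on the IL-4 side and the ISRE core in 6.47% on the IFN-γ side, against 7.98% and 10.1% in the window from 250 bases before the start. Genes not above background with 1 treatment have a bound only, which limits what can be said of their size.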
